A study of Homo sapiens with 43 samples.

Results

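SOX genes encode transcription factors that bind DNA through a shared high-mobility-group (HMG) box, and SOX2 is the member most often gained in squamous tumours. The 7 relatives below are described here at the chromatin level. They are SOX21 and SOX1, which act beside SOX2 in neural progenitors, SOX4 and SOX11, which act in progenitor and differentiating cells, SOX8 and SOX9, which act in neural crest and cartilage and, for SOX9 in mouse, in lung branching, and SOX6, a factor without an activation domain that works in cartilage, muscle and neural lineages. SOX proteins often bind beside a partner, and POU factors such as Brn2 (POU3F2) are the classical partners of SOX2. The 7 members were chosen by name, and each was examined in its hg19 gene range, given in whole kilobases, with 20 kb added on each side. They are 7 of 60698 regions, the others being 50 kb bins of chromosomes 1 to 22 and X that touch none of the 7 windows.

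Chromatin immunoprecipitation with sequencing (ChIP-seq) was done in established lung squamous cell carcinoma lines grown in one medium, without treatment. H3K27ac, an acetylated histone residue found at promoters and enhancers in use, was mapped in 13 unmodified lines, which are grouped here only by what was measured. LK2 and NCI-H520 had Sox2 and Brn2 ChIP as well (Sox2/Brn2 lines, n = 2), HCC95, KNS62 and HCC2814 had Sox2 ChIP (Sox2-only lines, n = 3), and Calu-1, HARA, EBC-1, HCC2279, SQ-1, HCC2450, NCI-H2887 and LC-1/SQSF had H3K27ac alone (H3K27ac-only lines, n = 8). LK2_DNp63 and LK2_GFP are LK2 derivatives with H3K27ac and Sox2 ChIP, and LK2_DNp63 also with p63 ChIP. DNp63 is the usual name of the p63 isoform of basal cells and GFP of a fluorescent protein, but the labels do not say how either derivative was made or whether it is 1 clone. The H3K27ac lists of LK2 and NCI-H520 come in 2 libraries each, and 1 library stands behind each of the rest. Expression of the SOX genes was not measured in the files used here.

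The 17 H3K27ac lists held 16470 to 43480 peaks covering 24.6 to 73.7 Mb, the 7 Sox2 lists 4217 to 14048 peaks, the Brn2 lists 4819 (LK2) and 1298 (NCI-H520) peaks and the p63 list 3159. The 2 LK2 libraries had the smallest H3K27ac coverage, at 29.1 and 24.6 Mb, so lengths are given both as measured and after scaling each library to the same covered total. The files hold no read counts, so a shorter covered length cannot be told apart from a shallower library or from fewer cells that carry the mark.

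H3K27ac at SOX21 was higher in the Sox2/Brn2 lines than in the H3K27ac-only lines, and no other comparison of line sets passed the test for it. The call was lost without NCI-H520, which leaves 1 line in the set. The log2 difference was then 3.28, against 3.20 with both lines. SOX4 and SOX9 carried the mark in 12 and 13 of the 13 lines. Acetylation was found at SOX21 in all 5 lines with Sox2 ChIP and in 2 of the 8 H3K27ac-only lines, and at SOX4 in every line but Calu-1. SOX6 held a Sox2 site bound in all 5 lines with Sox2 ChIP, and SOX1 and SOX11 had H3K27ac in 2 of the 13 lines each.

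The promoters of SOX21 and SOX4 are shown because SOX21 was marked in 7 of the 13 lines and SOX4 in 12. Each sequence is the 250 bases before the gene's start in RefSeq on GRCh38.p14, 5′ to 3′ on the gene's strand, with CG dinucleotides in capitals. SOX21 lies at chr13:94712546-94712795 on the minus strand and SOX4 at chr6:21593501-21593750 on the plus strand, coordinates of a build that is not the one of the peaks.
SOX21: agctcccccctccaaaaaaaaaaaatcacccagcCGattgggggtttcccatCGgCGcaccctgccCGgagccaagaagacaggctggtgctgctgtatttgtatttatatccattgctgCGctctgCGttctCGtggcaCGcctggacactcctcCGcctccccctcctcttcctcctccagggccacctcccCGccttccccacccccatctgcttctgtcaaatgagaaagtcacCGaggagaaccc
SOX4: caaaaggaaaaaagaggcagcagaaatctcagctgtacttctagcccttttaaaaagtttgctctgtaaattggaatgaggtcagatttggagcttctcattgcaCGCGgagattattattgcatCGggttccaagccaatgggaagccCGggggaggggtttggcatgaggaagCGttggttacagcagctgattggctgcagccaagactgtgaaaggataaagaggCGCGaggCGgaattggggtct
The SOX21 stretch has a GC content of 58.8% and 11 CG dinucleotides, and the SOX4 stretch 48.8% and 8, against medians of 58.0% and 11 over the 35116 promoters of the table. Neither holds the Sox motif ACAAAG or ACAATG on either strand, which 21.2% of all promoters of this length hold, nor the octamer ATGCAAAT bound by POU factors, which 1.63% hold. The SOX1 promoter, at 82.0% GC, has none of these motifs either, and of 5 SOX6 entries 2 hold a Sox motif. Of the 7 members 4 had a promoter in the table, and SOX8, SOX9 and SOX11 are named only.

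**Figure D1:**
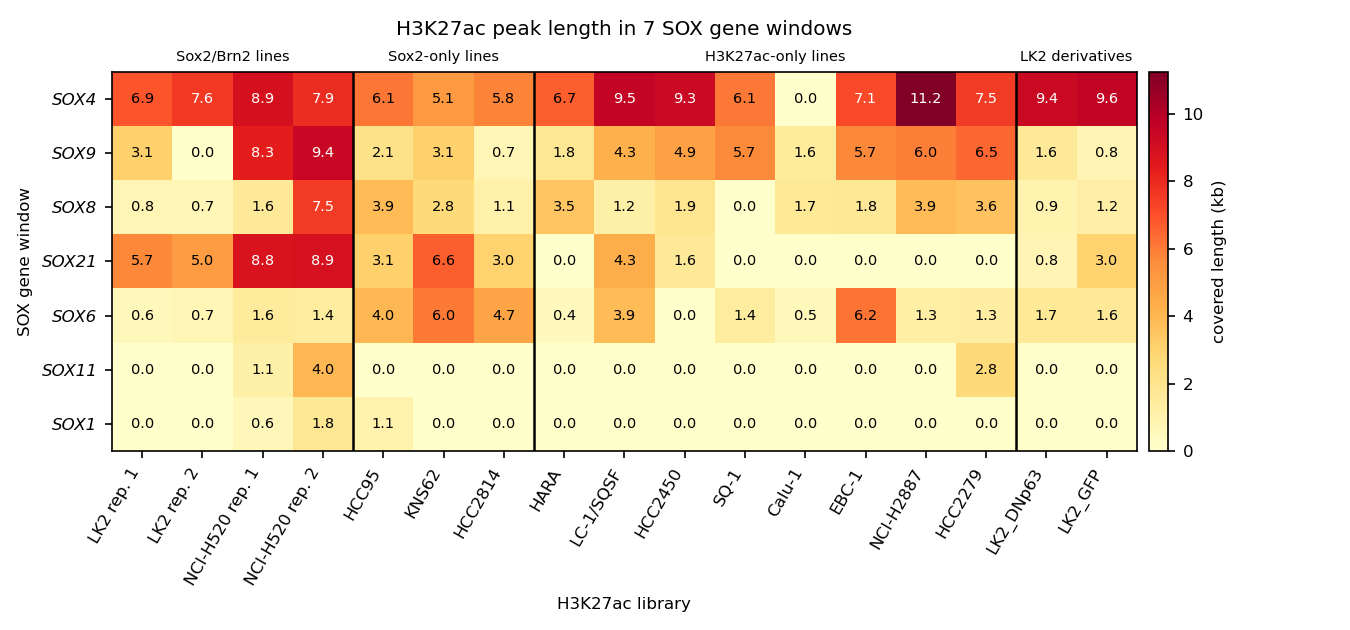
Covered length of H3K27ac peaks (kb, colour and printed value) in the 7 SOX gene windows (rows) for each of the 17 H3K27ac libraries (columns, grouped by line set). SOX21 is at 0.0 in 6 of the 8 H3K27ac-only lines, SOX4 is above 5 kb in every line but Calu-1, and SOX11 and SOX1 are at 0.0 in 11 of the 13 lines each.

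SOX21 encodes an HMG-box repressor that promotes neuronal differentiation in chick, and in mouse it also acts in airway and hair follicle epithelium. Its H3K27ac length was 5.74 and 5.04 kb in the LK2 libraries and 8.76 and 8.91 kb in the NCI-H520 libraries. The Sox2-only lines had 6.63 kb in KNS62, 3.09 kb in HCC95 and 3.05 kb in HCC2814. Among the H3K27ac-only lines LC-1/SQSF had 4.35 kb, HCC2450 1.63 kb and the other 6 lines none. The measured lengths of the Sox2/Brn2 and Sox2-only lines overlapped, KNS62 lying above LK2.

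After scaling, peaks covered 23.0% ± 1.96 of the SOX21 window in the Sox2/Brn2 lines (SD, n = 2), 10.0% ± 3.05 in the Sox2-only lines (n = 3) and 1.29% ± 2.72 in the H3K27ac-only lines (n = 8). The Sox2/Brn2 lines then ranked first, LK2 with 24.4% and NCI-H520 with 21.6%, and no other line exceeded 11.8%. Windows and bins were tested with limma on log2(percent + 2), a scale that understates changes at low levels. A mean of at least 4% over the 13 lines was required, which 8762 regions and 4 of the 7 members (SOX4, SOX8, SOX9 and SOX21) passed, and the adjusted p (Benjamini-Hochberg over all of them) had to be under 0.05.

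SOX21 was higher in the Sox2/Brn2 lines than in the H3K27ac-only lines, by 3.20 on the log2 scale (SE 0.56, adjusted p = 0.00215 in limma). The window passed the filter only through the Sox2/Brn2 lines, since its mean over the 11 others was 3.66%, and without the filter the adjusted p was 0.00686 (limma). No other of the 4 tested members passed in that comparison, where 5.68% of all regions were called higher. The call was lost without NCI-H520 (limma adjusted p = 0.0527) and kept without LK2 (0.0442), and over the 21 alternatives in which the window was tested the adjusted p ran between 9.54e-05 and 0.0527. With 50 kb on each side the SOX21 window fell below the filter and was not tested.

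Against all 11 other lines, with 11.3% of regions called, SOX21 missed the threshold, with a difference of 2.63 on the log2 scale (SE 0.83, adjusted p = 0.0555 in limma). Without KNS62, HCC2814 or LC-1/SQSF, lines that carry the mark outside the Sox2/Brn2 set, it passed at adjusted p = 0.0346, 0.0327 and 0.0428 (limma). Without HCC95 or HCC2450, which also carry it, the adjusted p was 0.0509 and 0.0647 (limma), and over 21 alternatives the adjusted p ran between 0.0153 and 0.323. Against the Sox2-only lines, with 8.58% of regions called, SOX21 differed by 1.09 on the log2 scale (SE 0.65, adjusted p = 0.375 in limma). The Sox2-only lines lay 2.11 above the H3K27ac-only lines on the log2 scale (SE 0.48, adjusted p = 0.28 in limma), in a comparison where 0% of regions passed adjustment and 1043 of 8762 had an unadjusted p under 0.05. Scaled values of the Sox2/Brn2 lines lay above those of the 11 others without overlap for SOX21, as for 6.8% of all regions.

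**Figure D2:**
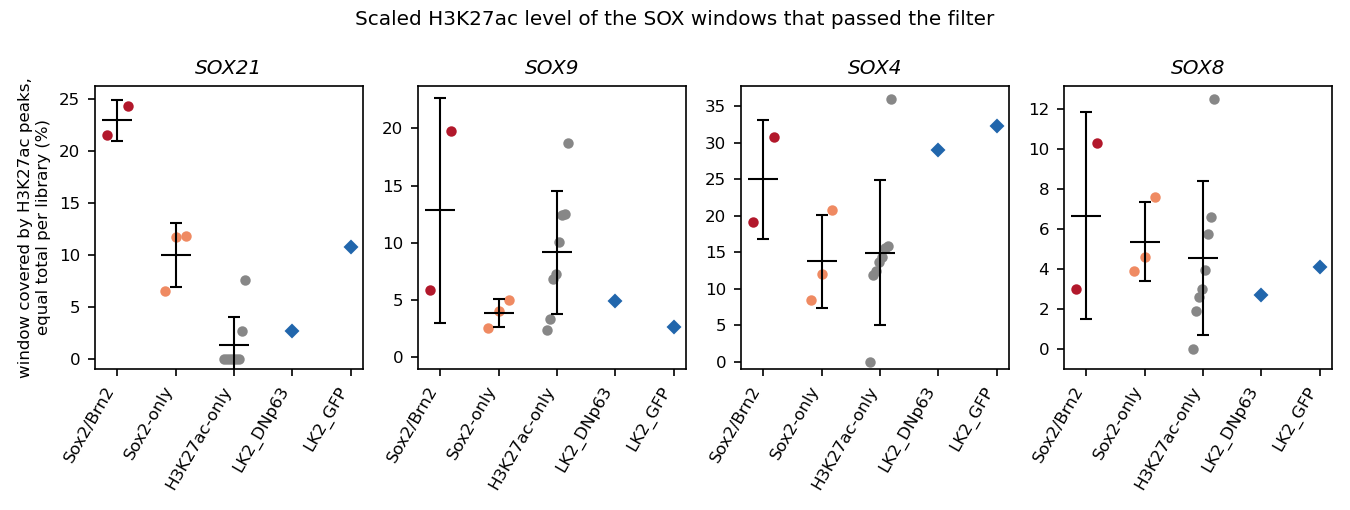
Share of each window covered by H3K27ac peaks after scaling every library to the same covered total (%, y axes differ by gene), for the 4 members that passed the filter. Points are lines, bars the mean and SD of a line set, and diamonds the single LK2_DNp63 and LK2_GFP libraries. Mean SOX21 coverage is 23.0% in the Sox2/Brn2 lines against 10.0% and 1.29%, and the other 3 genes overlap between the Sox2/Brn2 and H3K27ac-only lines.

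The SOX21 acetylation formed 1 merged region of 9329 bp at chr13:95357494-95366822 (hg19), which runs across the gene range and 2.8 kb beyond its high-coordinate end. Transcription starts near that end, as RefSeq has the gene on the minus strand. RefSeq gives it 2924 bp on GRCh38.p14, longer than the 2 kb range used, so the start need not be the range end itself. Sox2 was bound about 2.7 kb below the low-coordinate end of the range, downstream of the gene, at chr13:95358325-95360320. The peak ranked 5th of 12048 by score in NCI-H520, 920th of 7611 in LK2, 228th of 7511 in HCC2814 and 247th of 12034 in LK2_GFP. HCC95, KNS62 and LK2_DNp63 had no Sox2 peak there. In LK2 and NCI-H520 H3K27ac peaks of both libraries overlapped the line's own Sox2 peak, and in HCC2814 the nearest H3K27ac peak started at 95362999, beyond it. KNS62 had H3K27ac from 95360189 on, which met only the end of the wider LK2_GFP peak. Sites found in exactly these 3 of the 5 lines were 116 of 35819 merged Sox2 sites (0.324%). NCI-H520 had a second, weak Sox2 peak at chr13:95364632-95365064, ranked 10372.

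Brn2 had no peak in the SOX21 window in either line. The strongest H3K27ac peak of the window ranked 237 of 30641 and 1311 of 16470 in the LK2 libraries and 954 of 24619 and 56 of 29219 in the NCI-H520 libraries, the last shared with many other peaks of the same score. It ranked 1997 of 41236 in KNS62 and 24383 of 36555 in HCC2450. The LK2 replicates fell on either side of KNS62 by share of the list, at 0.773% and 7.96% against 4.84%.

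In LK2_DNp63 the SOX21 mark was reduced to a single H3K27ac peak of 797 bp, against 3 peaks over 3.02 kb in LK2_GFP. The LK2_DNp63 peak, at 95362440-95363236, stopped short of the high-coordinate end of the gene range, whereas the LK2_GFP peaks passed it and also overlapped the Sox2 site. Scaled coverage was 2.64% in LK2_DNp63 and 10.8% in LK2_GFP, against 23.9% and 24.8% in the LK2 libraries. The log2 difference of LK2_DNp63 to LK2_GFP was -1.47, without a test as there is 1 library per arm, and 3.91% of 8614 regions fell by at least 2-fold. Of the members, SOX21 and SOX4 reached the mean of 4% in these libraries, SOX21 only through LK2_GFP, and SOX4 stood at -0.14. LK2_GFP itself was lower than unmodified LK2, by -1.01 and -1.06 against its replicates, while those replicates differed by -0.05. Of all regions tested, 6.58% were at least 2-fold apart, in either direction, between the LK2 replicates. The share was 8.29% between LK2_DNp63 and LK2_GFP, and 8.09% and 12.3% between LK2_GFP and the LK2 replicates. The SOX21 difference between LK2_DNp63 and LK2_GFP was -0.72 with a pseudocount of 10 and -0.92 in the gene range alone, both short of 2-fold.

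The SOX21 Sox2 peak was not listed in LK2_DNp63, where the Sox2 list was also shorter, with 4217 peaks against 12034 in LK2_GFP. Of all LK2_GFP Sox2 peaks, 29.2% overlapped one of LK2_DNp63 (Wilson 95% interval 28.4 to 30.1%, counting error only). Of the 247 LK2_GFP peaks ranked as high as the SOX21 peak, 236 did (95.5%, interval 92.2 to 97.5%), and the SOX21 peak was among the 11 that did not. This cutoff is the SOX21 peak's own rank, so that peak is the lowest-ranked of the 247. With a single library per arm, whether its absence is particular to SOX21 was not tested.

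**Figure D3:**
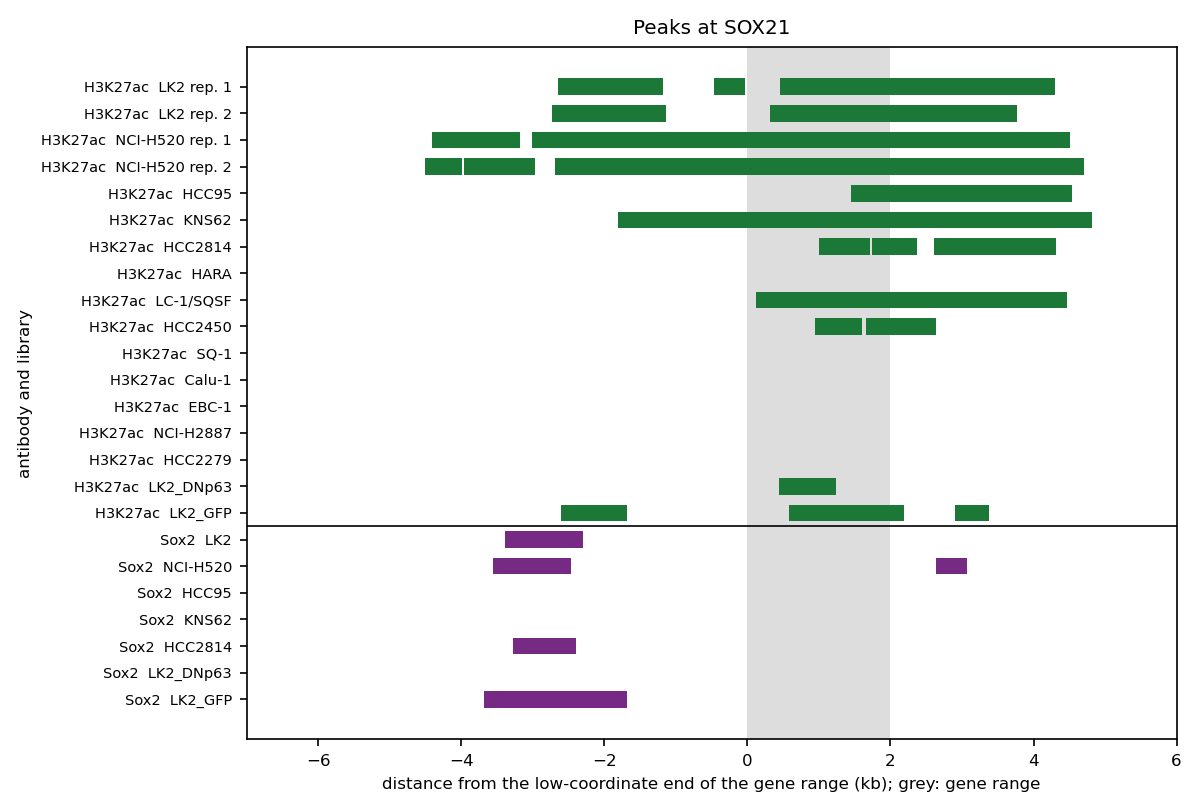
Peaks at SOX21, drawn by distance from the low-coordinate end of the gene range (kb, grey band the 2 kb gene range), for the 17 H3K27ac libraries (green, above the line) and the 7 Sox2 libraries (purple, below it). The Sox2 peak near -3 kb is present in LK2, NCI-H520, HCC2814 and LK2_GFP, and LK2_DNp63 keeps a single H3K27ac peak of 797 bp and no Sox2 peak.

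SOX4 and SOX11 encode closely related activators of progenitor and neural cells, and SOX4 is widely expressed in carcinomas. SOX4 was the most acetylated member per length, with a mean scaled coverage of 16.2% ± 9.20 (SD, n = 13 lines), above 99.3% of all 60698 regions. Most of those regions are bins below the filter of 4%, and the median of the regions that passed it was 6.52%. Its measured length was 7.22 kb in LK2 and 8.42 kb in NCI-H520 (means of 2 libraries). The Sox2-only lines had 5.10 kb, 5.83 kb and 6.12 kb, and the H3K27ac-only lines a lowest value of 0 kb in Calu-1, a median of 7.34 kb and a highest value of 11.24 kb in NCI-H2887. The measured lengths of LK2 and NCI-H520 were within the span of the H3K27ac-only lines, of which 7 of 8 carried the mark. After scaling, NCI-H520 had 19.2%, below HCC2814 with 20.8%, so the Sox2/Brn2 and Sox2-only lines overlapped. SOX4 coverage in the derivatives was 9.38 kb in LK2_DNp63 and 9.64 kb in LK2_GFP, against 6.88 and 7.57 kb in the LK2 libraries. Both main SOX4 regions, chr6:21592831-21601181 over the gene and chr6:21586554-21590528 below it, were found in the same 12 lines, Calu-1 lacking both. The SOX4 peak over the gene was ranked 38 of 30149 in LK2_DNp63 and 34 of 33454 in LK2_GFP, ranks shared by 330 and 498 peaks with the same score.

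SOX4 differed by a log2 value of 0.91 between the Sox2/Brn2 lines and the 11 others (SE 0.70, limma adjusted p = 0.428). Sox2 had 1 weak peak in the window, in HCC95 (rank 11374 of 14048), and p63 had a peak in LK2_DNp63 at chr6:21612355-21612927 (rank 2207 of 3159) outside any H3K27ac peak. No Brn2 peak was listed.

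SOX11 was acetylated in NCI-H520, at 1.15 and 3.96 kb, and in HCC2279, at 2.75 kb, and in none of the other 11 lines. Its main region, chr2:5835410-5837838, lies inside the gene range and was found in both NCI-H520 libraries. No Sox2, Brn2 or p63 peak lay in the window, and SOX11 did not reach the mean needed for testing.

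SOX9, a factor of cartilage, gut and lung epithelium, was marked in all 13 lines, with the gene range itself covered in each. It covered 1.55 kb in LK2, as 3.11 kb in one library and 0 kb in the other, and 8.87 kb in NCI-H520. The Sox2-only lines had 0.72 kb, 2.12 kb and 3.08 kb and the H3K27ac-only lines 1.56 kb to 6.49 kb with a median of 5.28 kb. By measured length NCI-H520, with 8.34 and 9.41 kb in its libraries, was the highest of the 13 lines. LK2 was the lowest but HCC2814, next to Calu-1 at 1.56 kb. After scaling LK2 had 5.91%, above Calu-1 with 2.37% and HARA with 3.32%. The top SOX9 peak of NCI-H520 ranked 1472 of 24619 in replicate 1 and 56 of 29219 in replicate 2, with the same score there as the SOX21 peak. Scaled values of the Sox2/Brn2 lines lay above those of the Sox2-only lines without overlap for SOX9 and SOX21, as for 12.8% of all regions, and SOX9 differed by 1.18 on the log2 scale (SE 0.61, adjusted p = 0.287 in limma). For SOX9 this rests on averaging LK2 libraries at 11.8% and 0%, the second below every Sox2-only line, and the difference was 0.21 with replicate 2 only and 0.45 without NCI-H520.

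LK2 against NCI-H520 was compared over their 2 and 2 libraries, where 15.3% of 8096 regions were called. None of the 4 members tested passed. SOX9 had the largest of the 4 differences, at a log2 value of -2.05 (SE 0.92, limma adjusted p = 0.193), with the 2 LK2 libraries 2.79 apart. SOX8 stood at -1.07, SOX4 at 0.62 and SOX21 at 0.16 in the same comparison. Without scaling SOX4 and SOX21 turned to -0.20 and -0.64, and SOX21 then passed at an adjusted p of 0.0433 (limma), the lowest of its 13 alternatives, whose highest was 1.0.

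The SOX9 region of 9816 bp, chr17:70114426-70124241, merged over the lines, held 1 Sox2 peak, in KNS62 (rank 4793 of 8907). That peak, at 70122747-70123084, lay beyond the H3K27ac of KNS62 itself, which ended at 70119570. A Sox2 peak of LK2_GFP (rank 4335) lay 9.1 kb below the gene at chr17:70107442-70108333, where LK2 replicate 1 and both NCI-H520 libraries were acetylated. The H3K27ac peak of LK2_GFP itself ended at 70107408, just short of that Sox2 peak. LK2_DNp63 lacked that Sox2 peak, and its SOX9 coverage was 1.63 kb, against 0.82 kb in LK2_GFP. Scaled coverage was 4.93% and 2.7%, with a mean under the 4% needed for the comparison. The log2 difference was 0.56.

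SOX8, a relative of SOX9 in neural crest and oligodendrocyte development, was marked in 12 of 13 lines, but mostly away from the gene. The gene range itself was acetylated in HCC95 and NCI-H520. The region found in 12 lines, chr16:1019571-1021672, lies more than 10 kb below it, and RefSeq places LMF1, CEROX1 and other genes within the 20 kb flanks, so the mark cannot be assigned to SOX8. Covered length was 0.71 kb in LK2 and 4.58 kb in NCI-H520, where the 2 libraries gave 1.65 and 7.51 kb. It was 1.08 to 3.88 kb in the Sox2-only lines and 0 to 3.90 kb in the H3K27ac-only lines. The difference between the Sox2/Brn2 lines and the 11 others was 0.38 (log2, SE 0.56, limma adjusted p = 0.695), and for SOX9 it was 0.61 (SE 0.55, limma adjusted p = 0.507). NCI-H520 had Sox2 peaks at chr16:1040674-1041542 (rank 629 of 12048) and chr16:1022521-1023012 (rank 4826), acetylated in NCI-H520 alone among the 13 lines, the first in replicate 2 only and the second in both libraries. The first was also a Sox2 peak of LK2_GFP, near the end of its list (rank 11432 of 12034), and LK2_GFP had another at chr16:1020671-1021278 (rank 11574). LK2_DNp63 listed neither, and its covered length was 0.88 kb, against 1.22 kb in LK2_GFP.

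SOX6, whose product lacks an activation domain and pairs with SOX5, has the longest window, 476 kb. RefSeq gives the gene a length of 772029 bp on GRCh38.p14, longer than the 436 kb range used, so part of the gene, with some of its promoters, was not examined. Its H3K27ac was 0.64 kb in LK2 and 1.51 kb in NCI-H520, against 3.97 kb, 4.74 kb and 6.03 kb in HCC95, HCC2814 and KNS62. The H3K27ac-only lines ran between 0 kb in HCC2450 and 6.17 kb in EBC-1, with a median of 1.30 kb. Both Sox2/Brn2 lines were lower than the 3 Sox2-only lines, as was the case after scaling for 26.9% of all regions that passed the filter. At a mean of 0.524% the SOX6 window did not pass it and was not tested. In a fit of all regions without that filter, the window differed by -0.42 on the log2 scale and was not called. The region shared by 12 lines, chr11:15989461-15992717, lies at the low-coordinate end of the gene, its 3′ end in RefSeq. Acetylation deeper in the gene was found in few lines, with chr11:16174666-16177311 marked in SQ-1 and EBC-1 and chr11:16206432-16207013 in EBC-1. No factor peak overlapped those 2 regions. The derivatives had 1.67 kb in LK2_DNp63 and 1.64 kb in LK2_GFP, a log2 difference of -0.02 after scaling.

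SOX6, with the longest window, held the most Sox2 peaks of the 7, 1 in LK2, 3 in NCI-H520, 2 each in HCC95 and KNS62 and 5 in HCC2814. The site at chr11:16023019-16024279, inside the gene range, was bound by Sox2 in all 5 lines and in both derivatives. Of 35819 merged Sox2 sites of the 5 lines, 283 (0.79%) were bound in all 5. Its rank by score was 47 in HCC2814, 328 in LK2, 365 in KNS62, 460 in NCI-H520 and 646 in HCC95, and in the derivatives 108 in LK2_DNp63 and 444 in LK2_GFP. It stood in the upper part of each list. The 1 Brn2 peak of all 7 windows lay in it, in LK2 (chr11:16023505-16023865, rank 4193 of 4819). Over all Brn2 peaks, 39.9% overlapped a Sox2 peak in LK2 and 18.2% in NCI-H520. No H3K27ac peak was listed at this site in the 5 lines in which Sox2 was bound, nor in the derivatives. One was listed in EBC-1 (1688 bp, rank 16914 of 36825) and in NCI-H2887, where Sox2 was not profiled. The NCI-H2887 peak had 190 bp and stood near the end of its list (rank 43202 of 43480). Of the 283 sites bound in all 5 lines, 25 (8.83%) were acetylated in none of the 5.

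A second SOX6 site, chr11:16118792-16119777, lay 131.3 kb from the low-coordinate end of the gene range, against 35.6 kb for the first. Sox2 was bound there in HCC2814 (rank 79), HCC95 (rank 204), KNS62 (rank 858) and lower in the list of NCI-H520 (rank 4373 of 12048), and not in LK2. H3K27ac met the merged site in HCC95, KNS62 and HCC2814 and in no other library. In HCC95 and KNS62 it overlapped the line's own Sox2 peak. The H3K27ac peak of HCC2814 started at 16119695, beyond the end of its own Sox2 peak at 16119680. It met only the ends of wider Sox2 peaks of other libraries. LK2_DNp63 had a Sox2 peak at this site (rank 1494 of 4217) together with a p63 peak (chr11:16118912-16119570, rank 672 of 3159), and LK2_GFP had neither a Sox2 peak nor acetylation. Of the 4217 Sox2 peaks of LK2_DNp63, 656 (15.6%) were in neither LK2 nor LK2_GFP. Of these, 111 (16.9%, Wilson 95% interval 14.2 to 20%) overlapped a p63 peak, against 190 of the other 3561 (5.34%, interval 4.64 to 6.12%). The intervals hold counting error only, over peaks of single libraries, and a link between p63 and Sox2 binding was not tested. p63 was not profiled in LK2_GFP.

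SOX1, a SOX2 relative of neural progenitors, had the lowest mean scaled coverage of the members, 0.376%. Its covered length was 0.61 and 1.81 kb in the NCI-H520 libraries, 1.05 kb in HCC95 and none elsewhere, all outside the gene range. No Sox2, Brn2 or p63 peak lay in its window.

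**Figure D4:**
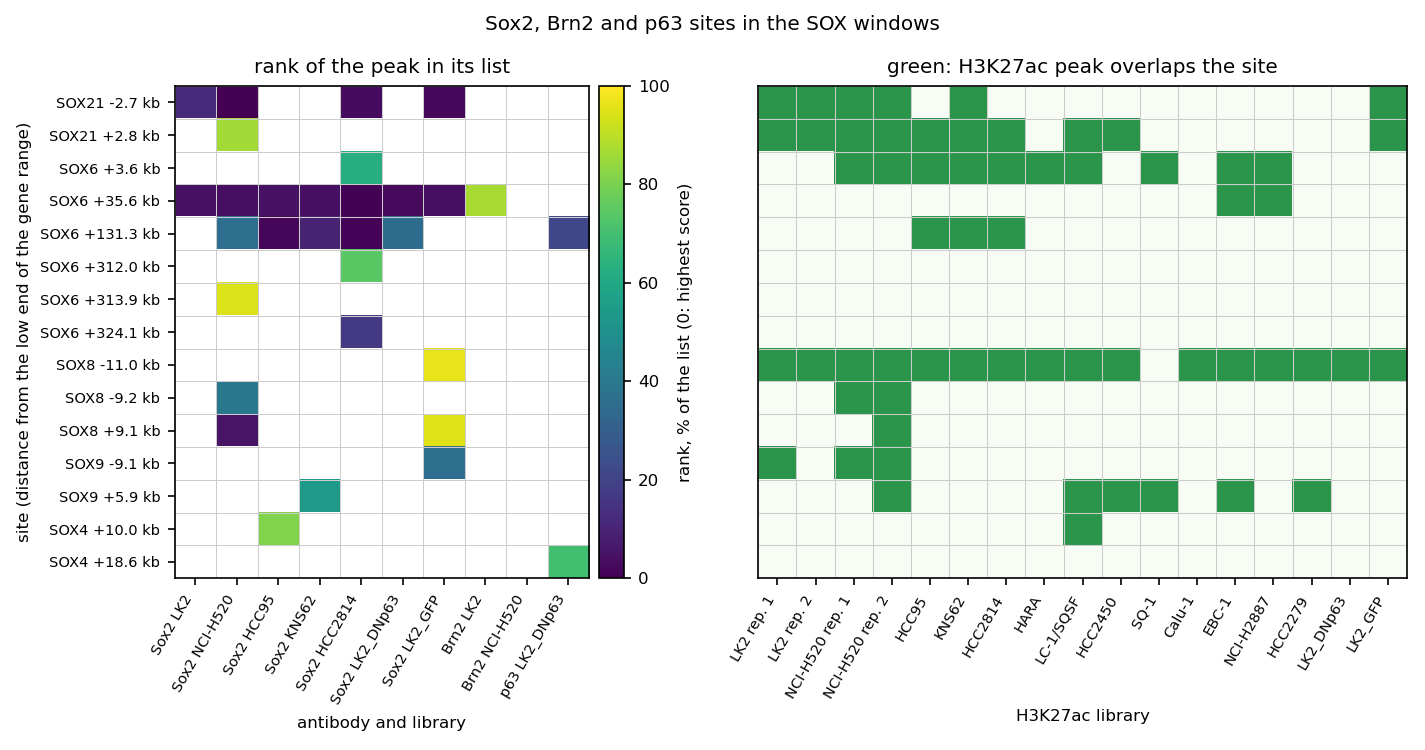
The 15 merged Sox2, Brn2 and p63 sites in the SOX windows (rows, with the distance of their midpoint from the low-coordinate end of the gene range). The left panel colours each peak by its rank in its own list (% of the list, 0 the highest score), and the right panel marks in green the H3K27ac libraries with a peak over the site. The SOX6 site at 35.6 kb is high in all 7 Sox2 lists but green in EBC-1 and NCI-H2887 alone, in NCI-H2887 by a peak near the end of its list. The SOX6 site at 131.3 kb is green in the 3 Sox2-only lines, in HCC2814 by a peak beyond the line's own Sox2 peak.

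Sox2 peak numbers were compared between the Sox2/Brn2 lines (n = 2) and the Sox2-only lines (n = 3), a design in which an exact permutation test cannot go below p = 0.1. Of the 7 windows 5 held a Sox2 peak in at least 1 of these lines, and the numbers separated the sets in 0 of the 5, while 11.7% of the 22691 regions with a Sox2 peak did so. With LK2_DNp63 set against LK2_GFP, 3 windows had 2-fold fewer Sox2 peaks (with 1 added to each number). They were SOX21 and SOX9, with 0 against 1 each, and SOX8, with 0 against 2. The same held for 64% of 10418 regions, so the members' share of 3 among the 4 windows with a peak is near that of all regions. SOX6 had 2 Sox2 peaks in LK2_DNp63 and 1 in LK2_GFP.

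Over the 13 lines, the scaled coverage of SOX4 was most like that of SOX9 among the members, and the reverse (Spearman rho 0.44). SOX6 was most like SOX21 (0.31), SOX21 most like SOX4 (0.31) and SOX8 most like SOX9 (0.23). These are weak values over lines that differ in covered length, and they serve as a description.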

How the data were processed

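H3K27ac, Sox2, Brn2 and p63 ChIP-seq peak lists of human lung squamous carcinoma lines were used, 27 lists among 43 labelled samples. The 16 inputs were not analysed here. Per the labels' protocols, Brn2 chromatin was fixed with formaldehyde plus disuccinimidyl glutarate and cut with micrococcal nuclease before sonication, and all other chromatin was fixed with formaldehyde and sonicated. The submitters' processing notes name Bowtie2, without a version, and the build hg19 (GRCh37). Peak names begin with MACS, and for the caller no settings were found in the labels or headers. The score per peak in the deposited lists is the authors' value, at least 50, and was used only to rank peaks within a list. Of 652792 peaks, 2092 lay outside chromosomes 1 to 22 and X and were left out.

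H3K27ac peaks were merged per library, and the covered percent of each SOX window and of each 50 kb bin was scaled to an equal covered total. The 2 libraries of LK2 and NCI-H520 were averaged per line. Differences of log2(percent + 2) were tested with limma 3.58.1 in R 4.3.3 with a mean-variance trend, in 1 fit of the 3 line sets, in a fit of 2 groups (Sox2/Brn2 lines against the 11 others) and in a fit of the LK2 and NCI-H520 libraries. The code was tested on simulated data. Without the filter, most regions in the fit of LK2 against NCI-H520 had no residual variance, which makes the p-values of that alternative unreliable. Sites overlapped from 1 bp on, and coordinates are 1-based. Python 3 tables used pandas. Separate cultures are not stated in the labels, and p-values therefore reflect only the variation among these samples, possibly technical. The members and lists were chosen with earlier results of these data known, and all 7 members are named with their values. Per window, the Sox2 site found in most lines and each Brn2 and p63 peak were named by rule, and other sites were chosen after their values were seen. Without an hg19 annotation, the other SOX and POU genes and the cell type markers were not used, so tissue identity was not checked here. RefSeq gene names and promoters are from GRCh38.p14.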

Additional observations from a re-analysis of the deposited data

Results flagged for a closer look

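The covered lengths of 3 lines stood apart within the 8 H3K27ac-only lines, among 6 members examined. Each had a gap to the nearest line that was large against the range of the group, which chance alone gives in about 1 of 20 groups of normally distributed values. That rate does not hold where most lines are at 0 kb, as at SOX11 and SOX21. At SOX11 a single marked line stands apart whatever its length. Calu-1 had 0.00 kb of H3K27ac in the SOX4 window, where the next lowest line, SQ-1, had 6.08 kb. HCC2279 had 2.75 kb in the SOX11 window and the other 7 lines none. LC-1/SQSF had 4.35 kb in the SOX21 window, with HCC2450 next at 1.63 kb and the other 6 lines at 0. Calu-1 had a covered total of 72.9 Mb, HCC2279 of 71.3 Mb and LC-1/SQSF of 69.4 Mb, within the range of the 13 lines, and each is a single library.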

How the results depend on the processing

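The count of SOX windows called between the Sox2/Brn2 lines and the 11 others was 0, and it became 1 (SOX21) with a pseudocount of 10 or replicate 2 only, and 0 to 1 when a line was left out. Against the H3K27ac-only lines the count of 1 (SOX21) fell to 0 with 50 kb on each side, where the SOX21 window was not tested. It ranged over 0 to 1 without single lines (0 without NCI-H520). Between the Sox2-only and H3K27ac-only lines it ranged over 0 to 1 (1, SOX21, without LC-1/SQSF, where 47 regions were called instead of 0). Between LK2 and NCI-H520 the 0 became 1 without scaling (SOX21) and without flanks (SOX11), 2 without the filter (SOX9 and SOX11, both lower in LK2), and stayed 0 with the replicate block, where 877 regions were called. Same-numbered libraries deviated in opposite ways (r = -0.17 over 8096 regions), and with crossed numbers, an alternative chosen after seeing the data, 1 window and 1910 regions were called. Leaving out single libraries of LK2 or NCI-H520 gave 0 to 387 regions, against 1240 (0 without LK2 replicate 2). For LK2_DNp63 against LK2_GFP the 1 window past 2-fold became 0 with a pseudocount of 10. With 50 kb flanks the count was 0 as well, but the SOX21 window fell below the filter there and was not compared. Without flanks the window was SOX9, higher, in place of SOX21. For Sox2 peak numbers the windows separating the Sox2/Brn2 from the Sox2-only lines rose to 1 with equal numbers of top peaks or the LK2_GFP list in place of that of LK2, and ranged over 0 to 2 without single lines. The 3 windows with fewer Sox2 peaks in LK2_DNp63 became 0 without flanks and 1 (SOX21) with equal numbers of top peaks. The single Brn2 peak overlapped Sox2 under each alternative.

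Among the differences given in the report, those of SOX8 and SOX9 between the Sox2/Brn2 lines and the 11 others turned sign, at -0.17 with replicate 1 only (SOX8) and -0.36 with replicate 2 only (SOX9). Without single lines they ranged over -0.27 to 1.03 (SOX8) and -0.12 to 1.34 (SOX9), lowest without NCI-H520. Between LK2 and NCI-H520 SOX4 and SOX21 turned to -0.20 and -0.64 without scaling, where the median of all regions moved to -0.56 from 0.23. Without scaling 20.4% of called regions were higher in the Sox2/Brn2 lines than in the 11 others (median -0.61), against 44.7% (median -0.14), and the split was 8.12% against 43% for LK2 over NCI-H520, 19% against 44.5% towards the H3K27ac-only lines and 28.2% against 38.3% towards the Sox2-only lines. Regions called between the Sox2/Brn2 lines and the 11 others, 992, were 1877 without the filter, 425 with equal numbers of top peaks, 390 without LK2 and 220 without NCI-H520. Towards the H3K27ac-only lines, 1120 became 1800, 454, 421 and 251 in the same order, and towards the Sox2-only lines 752 became 1376, 326, 340 and 159, with 432 without scaling and 500 without HCC95. LK2 over NCI-H520 had 1934 without scaling and 3402 without the filter, and LK2_DNp63 over LK2_GFP 420 without scaling, 204 with a pseudocount of 10 and 2721 without the filter, against 714. The cause was not tested in any of these. Read depth is not in the files, so a peak that is missing from a list was not detectable there and is not shown to be absent.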
